A study of Mus musculus with 9 samples.

Results

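The mitosis and spindle genes described here are 36 protein-coding mouse genes that act between the end of G2 and the separation of daughter cells. They were chosen by name, as genes known for their part in entry into mitosis, the spindle, the kinetochore, the spindle checkpoint, anaphase or cytokinesis. Earlier results of these data were known at that choice, so counts over the 36 genes are descriptions. All 36 were found among the 20627 features of the deposited count table, and all 36 passed the filter on low counts, with 1186 to 30590 counts per gene and library. The cells were Raw264.7, an established mouse macrophage-like line that was transformed by a leukaemia virus and divides in culture. The 9 libraries formed 3 groups of 3. Cells of the HG group were incubated for 6 h in 35 mmol/l glucose. Those of HG-SIG had sitagliptin phosphate, an inhibitor of dipeptidyl peptidase 4, added to the same glucose for the same time. NC was taken as the control. Its glucose concentration and time, and the dose of sitagliptin, are not stated in the sources used here. Cells given sitagliptin without high glucose, and an osmotic control, were not analysed here. Whether the 3 libraries of a group came from separate cultures is not stated, and p-values therefore speak of the spread among these libraries, which may be technical.

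Mitosis starts when the kinase CDK1, bound to A-type and B-type cyclins, is switched on. Spindle microtubules then attach to kinetochores, large protein assemblies on centromeres, while a checkpoint blocks the anaphase-promoting complex until every chromosome is attached. That complex afterwards marks securin and cyclin B for degradation, the cohesin between sister chromatids is cut and the cell divides. Transcripts of most of these proteins rise from late S phase to mitosis. Their promoters often carry a cell cycle homology region (CHR), which the MuvB complex contacts, together with CCAAT boxes, which the factor NF-Y binds. MuvB acts with MYBL2 and FOXM1 as an activator and with the pocket proteins RBL1 and RBL2 as a repressor.

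Libraries held 23285821 to 31571578 counts, and the 36 genes together took 0.601% to 0.777% of them. The 9 macrophage markers looked for were all expressed, with a summed level of 9410 to 9820 CPM (counts relative to the total of each library) in NC libraries and 9360 to 9920 in HG libraries, and of 5590 to 5690 in those of HG-SIG. The part of this lower marker level in the HG-SIG results below was not tested. Marker lists of lymphocytes, epithelial cells, fibroblasts and endothelial cells summed to at most 0.346 CPM in any library, and 0 of their genes had enough counts to be tested. A property of the whole series bears on every comparison with HG-SIG. The trimmed mean of M-values (TMM) method, which scales libraries on the assumption that most genes do not differ, gave factors of 0.948 to 0.977 to the NC and HG libraries and of 1.078 to 1.091 to the HG-SIG libraries. Scaled by library size alone, the median log2 fold change of all 13311 tested genes was therefore 0.17 in HG-SIG against HG, instead of 0.009, and 0.21 in HG-SIG against NC, instead of 0.022. CPM values below are TMM-scaled unless they are said to be scaled by library size alone, and calls with HG-SIG that differ by library size alone are given with the gene or with its pattern of calls.

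Promoter sequence was at hand for 30 of the 36 genes, in windows of 300 bases from 250 bases before to 50 bases after the annotated start (RefSeq, build GRCm38.p6). Aurkb, Ccna2, Incenp, Kif20a, Spc24 and Tpx2 were not matched. The CHR was searched as TTTGAA or TTCGAA and the CCAAT box as CCAAT, on both strands. Windows are shown for 6 genes to which the results return: Nuf2 and Cdc20 had the largest differences between HG and NC, Ccnb2 and Spc25 those of either sign between HG-SIG and HG, and Ttk and Plk1 are kinases that stood high in HG-SIG against NC. Letters in capitals are CHR and CCAAT matches, read 5′ to 3′ on the strand of the gene.
Nuf2, chr1:169531415-169531714, minus strand: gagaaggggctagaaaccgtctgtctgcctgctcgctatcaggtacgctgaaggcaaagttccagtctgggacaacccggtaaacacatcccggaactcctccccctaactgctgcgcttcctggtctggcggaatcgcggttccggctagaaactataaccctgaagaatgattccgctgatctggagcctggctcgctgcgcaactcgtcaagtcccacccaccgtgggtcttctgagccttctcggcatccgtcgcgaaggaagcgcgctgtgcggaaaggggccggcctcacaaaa
Cdc20, chr4:118437294-118437593, minus strand: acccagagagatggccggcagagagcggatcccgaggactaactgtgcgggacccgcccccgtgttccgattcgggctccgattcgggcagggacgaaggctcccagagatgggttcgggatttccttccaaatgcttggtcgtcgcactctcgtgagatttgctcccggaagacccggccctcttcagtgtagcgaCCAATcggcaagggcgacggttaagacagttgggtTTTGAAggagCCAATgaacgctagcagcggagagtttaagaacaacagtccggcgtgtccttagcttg
Ccnb2, chr9:70421505-70421804, minus strand: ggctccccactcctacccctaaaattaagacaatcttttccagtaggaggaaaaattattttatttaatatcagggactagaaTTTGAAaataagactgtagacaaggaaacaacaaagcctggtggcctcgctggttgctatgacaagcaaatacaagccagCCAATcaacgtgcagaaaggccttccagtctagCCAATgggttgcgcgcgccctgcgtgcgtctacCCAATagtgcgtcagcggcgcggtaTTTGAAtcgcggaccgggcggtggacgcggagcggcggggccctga
Spc25, chr2:69206164-69206463, minus strand: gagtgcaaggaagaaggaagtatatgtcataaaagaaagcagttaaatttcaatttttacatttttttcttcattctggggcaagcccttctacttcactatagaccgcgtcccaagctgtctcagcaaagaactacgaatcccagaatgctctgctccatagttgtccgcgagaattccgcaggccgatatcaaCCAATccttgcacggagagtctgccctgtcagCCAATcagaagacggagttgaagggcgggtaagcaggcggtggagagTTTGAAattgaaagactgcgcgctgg
Ttk, chr9:83834439-83834738, plus strand: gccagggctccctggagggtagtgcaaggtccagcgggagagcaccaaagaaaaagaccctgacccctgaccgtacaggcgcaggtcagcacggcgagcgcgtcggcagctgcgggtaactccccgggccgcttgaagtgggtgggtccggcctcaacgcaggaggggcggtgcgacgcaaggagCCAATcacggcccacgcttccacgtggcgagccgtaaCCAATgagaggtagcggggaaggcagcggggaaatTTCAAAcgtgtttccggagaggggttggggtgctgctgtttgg
Plk1, chr7:122159185-122159484, plus strand: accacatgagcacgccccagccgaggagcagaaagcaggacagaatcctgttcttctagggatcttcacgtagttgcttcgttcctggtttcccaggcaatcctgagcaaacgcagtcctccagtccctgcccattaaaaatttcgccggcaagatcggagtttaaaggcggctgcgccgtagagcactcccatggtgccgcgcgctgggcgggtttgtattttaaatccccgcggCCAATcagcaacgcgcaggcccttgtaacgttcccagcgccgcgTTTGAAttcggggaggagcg

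In the Cdc20 window the CHR began 18 bases before the start and lay between CCAAT boxes that began 53 and 8 bases before it. The Ccnb2 window held 3 CCAAT boxes, 87, 54 and 21 bases before the start, followed by a CHR at base 5 after it, and another CHR 167 bases before it. In Spc25 the boxes began 55 and 23 bases before the start and the CHR at base 25 after it. The Ttk window had the same order, with boxes 65 and 28 bases before the start and the CHR, as TTCAAA on the printed strand, at base 8 after it. Plk1 had 1 CCAAT box, 14 bases before the start, and its CHR at base 31 after it, while the Nuf2 window held neither motif. Of the 30 genes, 23 (76.7%) had a CHR and 23 (76.7%) a CCAAT box, 20 (66.7%) had both, and 21 (70.0%) had a CHR within 50 bases of the start. Of the 27025 genes with the 32851 windows in the reference, counted by gene in the same way, 21.7% had a CHR and 41.1% a CCAAT box. Both were found in 8.61%, and a CHR within 50 bases of the start in 6.12%. The E2F motifs TTTGGCGC, TTTCGCGC and TTTCCCGC, on either strand, were found in 1 of the 30 genes (Cdk1) and in 2.12% of the 27025 genes. Motif matches are descriptions of these letters and were not tested as binding sites.

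The mitotic genes stood higher in high glucose. In HG against NC, 30 of the 36 genes (83.3%) rose and 0 fell, where 14.3% of all tested genes rose and 15.2% fell (edgeR quasi-likelihood test, adjusted p under 0.05). As the 36 were chosen with earlier results known, the gap between these shares is a description and was not tested. The rises were small, between 9.48% and 30.2%, and the median log2 fold change of the 36 genes was 0.20 beside 0.003 for all tested genes. The log2 fold change was above 0 for 34 of the 36, as it was for 50.7% of all tested genes. For 29 of the 36, every HG library lay above every NC library, a pattern that 20.8% of all tested genes showed. The 6 that did not pass were Anln, Bub1, Cenpe, Ndc80, Pttg1 and Spc24. Without NC replicate 3 the count was 24, as Cdk1, Cenpa, Cenpf, Spc25, Top2a and Ube2c no longer passed. The rise of Ube2c was also lost without replicate 1 or 2 of NC or of HG, that of Spc25 without NC replicate 1 or HG replicate 1 or 2, that of Cenpf without NC replicate 1 or HG replicate 2 or 3, and that of Cenpa without HG replicate 1 or 2. In RNA from bulk cells, a larger share of cells in G2 or mitosis and more transcript per such cell cannot be told apart.

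When sitagliptin was present with high glucose, the genes were called in both directions with TMM and mostly higher by library size alone. In HG-SIG against HG with TMM, 20 of the 36 (55.6%) were called in either direction, near the 52.5% of all tested genes. Compared with HG, 4 of the 36 rose in HG-SIG (Cenpe, Nek2, Spc25 and Ttk) and 16 fell, where 25.7% of all tested genes rose and 26.8% fell. Log2 fold changes above 0 with TMM were found for 15 of the 36, and for 51.1% of all tested genes. Scaled by library size alone, 20 rose and 1 fell (Ccnb2), beside 45.8% and 13.7% of all tested genes. The median log2 fold change of the 36 genes was accordingly -0.014 with TMM and 0.15 by library size alone. This median differed from that of all genes by -0.023 in both, which follows from a scaling factor shifting all genes nearly alike. With limma on log2(TPM + 1), which applies no TMM factors, the difference was 0.001 over 12099 genes with a length. Of the 36, 5 genes were called in the same direction with both scalings: Cenpe, Nek2, Spc25 and Ttk higher and Ccnb2 lower. Without HG replicate 1, Cenpe and Nek2 no longer passed, and Nek2 was lost without HG replicate 2 or any HG-SIG library as well. The fall of Aurkb was lost without NC replicate 3 or any library of HG or HG-SIG, that of Nuf2 without NC replicate 3, HG replicate 1 or 2, or HG-SIG replicate 1 or 3, that of Cdca8 without HG replicate 1 or 2 or HG-SIG replicate 2 or 3, and that of Bub1b without HG-SIG replicate 3. Compared with NC, 22 of the 36 (61.1%) rose in HG-SIG and 0 fell, where 29.9% of all tested genes rose and 28.7% fell. Log2 fold changes were above 0 for 32 of the 36, and for 52.4% of all tested genes. With library size alone 34 rose and 0 fell, beside 51.0% of all tested genes that rose, and the 22 genes were among the 34. Cdc20, Ndc80 and Tpx2 no longer passed without NC replicate 3 or without HG-SIG replicate 1, and Cdc20 was also lost without NC replicate 1 or HG-SIG replicate 2. The 3 comparisons share libraries and are not independent of each other.

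**Figure D1:**
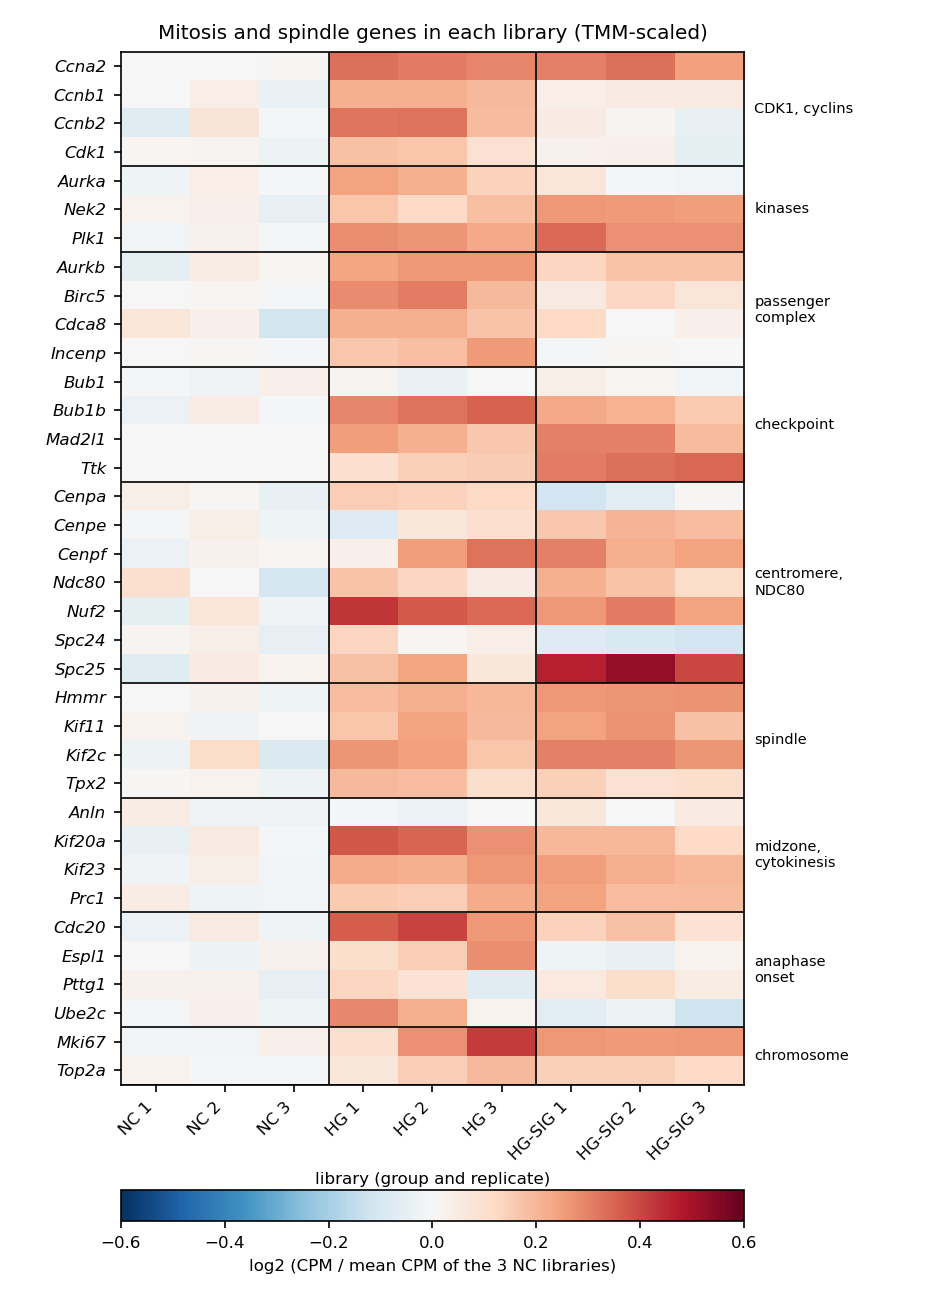
Level of each of the 36 genes (rows, grouped by role) in each of the 9 libraries (columns), as the log2 ratio of its TMM-scaled CPM to the mean of the 3 NC libraries; red is above and blue below that mean. The HG columns are red for most genes, and the HG-SIG columns are reddest for Spc25 and pale or blue for Cdk1, Ccnb2, Cenpa, Espl1 and Ube2c.

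The kinase that starts mitosis and its cyclins all rose in HG, where 14.3% of all tested genes rose. Cdk1, the catalytic subunit, stood at 183, 184 and 178 CPM in NC, 205, 204 and 193 CPM in HG, and 185, 185 and 174 CPM in HG-SIG. Every HG library was above every NC library, and the HG-SIG libraries ran over the NC range (log2 fold change 0.15 in HG against NC, -0.14 in HG-SIG against HG and 0.016 there by library size alone). Ccnb1, the main cyclin of mitotic entry, stood at 243, 251 and 237 CPM in NC, 282, 283 and 279 CPM in HG, and 249.9, 252 and 253 CPM in HG-SIG. Its HG libraries were again apart from the others, at 0.21 above NC, and HG-SIG was lower than HG by the TMM fit (-0.16, adjusted p = 0.00137) but not by library size alone (adjusted p = 0.999). Ccnb2, another B-type cyclin and, per base of annotated exon, the most abundant of the 36 in NC, stood at 125, 139 and 131 CPM in NC, 165, 165 and 150.4 CPM in HG, and 136, 133 and 128 CPM in HG-SIG. The HG libraries did not overlap with either other group, and NC and HG-SIG overlapped. Its log2 fold change was 0.28 ± 0.049 (SE, adjusted p = 7.7e-04) in HG against NC and -0.28 ± 0.049 (SE, adjusted p = 4.4e-04) in HG-SIG against HG. With library size alone the latter was -0.12 with an adjusted p of 0.0467. Ccna2, the cyclin of S phase and G2, stood at 269, 269.7 and 271 CPM in NC, 339, 335 and 331 CPM in HG, and 333, 339.8 and 320.0 CPM in HG-SIG. Here HG and HG-SIG overlapped and both lay far above NC, with 0.31 ± 0.034 (SE, adjusted p = 1.8e-05) in HG against NC and 0.29 ± 0.034 (SE, adjusted p = 9.4e-06) in HG-SIG against NC. Ccna2 was higher in HG-SIG than in HG by library size alone (0.14, adjusted p = 0.00201). Of its exon bases, 12.49% overlap with Exosc9 on the other strand, and, as no source used here says whether counting used the strand, its counts may include reads of that gene.

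The 3 mitotic kinases differed in their calls with TMM, while by library size alone Plk1 and Nek2 were both called higher in all 3 comparisons. Differences between the kinases were not tested. Plk1, the polo-like kinase that acts from mitotic entry to cytokinesis, stood at 106, 109 and 106 CPM in NC, 130.0, 129 and 125 CPM in HG, and 136, 129.5 and 129 CPM in HG-SIG. Both glucose groups lay above NC and overlapped with each other, with 0.26 in HG against NC and 0.30 ± 0.035 (SE, adjusted p = 1.1e-05) in HG-SIG against NC. Against HG, HG-SIG was 0.038 and not called with TMM, and 0.20 and called higher by library size alone (adjusted p = 2.9e-04). Aurka, the centrosome and spindle pole kinase, stood at 112, 117 and 113 CPM in NC, 134, 132 and 126 CPM in HG, and 119.9, 113 and 112 CPM in HG-SIG. It rose in HG (0.20), and its HG-SIG libraries overlapped with NC and fell below HG by the TMM fit (-0.18), while by library size alone the difference was -0.022 (adjusted p = 0.654). Nek2, a kinase that separates the centrosomes, stood at 108, 108 and 102 CPM in NC, 119, 115 and 120.2 CPM in HG, and 127, 127 and 126 CPM in HG-SIG. The 3 groups did not overlap, and Nek2 rose in HG (0.16) and again in HG-SIG over HG, by 0.10 ± 0.035 (SE, adjusted p = 0.0294), or by 0.26 with library size alone. The call of Nek2 in HG-SIG against HG was held by 11 of 18 alternative fits, which changed the scaling, the filter, the test or the libraries used.

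All 4 genes of the chromosomal passenger complex, which corrects faulty attachments and later sits at the spindle midzone, rose in HG and fell in HG-SIG against HG with TMM, while by library size alone 0 of the 4 were called in HG-SIG against HG. Of all tested genes, 14.3% rose in HG against NC and 26.8% fell in HG-SIG against HG with TMM. By library size alone, 45.8% rose and 13.7% fell in the latter. Aurkb, its kinase, stood at 94.0, 101 and 98.8 CPM in NC, 115, 117 and 117 CPM in HG, and 107, 110.5 and 110.4 CPM in HG-SIG. Its groups did not overlap, and HG-SIG lay between NC and HG (0.25 in HG against NC and -0.093 in HG-SIG against HG). The HG-SIG call of Aurkb had an adjusted p of 0.0476 and was held by 7 of 18 alternative fits, while limma on log2(TPM + 1), which applies no TMM factors, called Aurkb higher in HG-SIG (0.11, adjusted p = 0.0153). Incenp, the scaffold, stood at 206, 206 and 204 CPM in NC, 229.8, 233 and 245 CPM in HG, and 204, 206 and 206 CPM in HG-SIG. Its HG libraries were apart from the other 6, which lay within 204 to 206 CPM, and the difference of HG-SIG from HG was -0.20 ± 0.034 (SE, adjusted p = 3.5e-04), or -0.039 by library size alone. Birc5, which encodes survivin and brings the complex to centromeres, stood at 97.0, 97.8 and 96.6 CPM in NC, 118, 120.3 and 111 CPM in HG, and 101, 106 and 102 CPM in HG-SIG. It rose in HG by 0.26 ± 0.039 (SE, adjusted p = 2.3e-04), and HG-SIG lay in between with no overlap (-0.18 against HG). Cdca8, which encodes borealin, stood at 119, 115 and 104 CPM in NC, 131, 131 and 127 CPM in HG, and 122, 113 and 115 CPM in HG-SIG. HG was above NC (0.20) and above HG-SIG (-0.15 for HG-SIG against HG), and NC and HG-SIG overlapped.

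Genes of the spindle checkpoint did not move together. Bub1, a kinase that recruits the other checkpoint proteins to kinetochores, stood at 221, 219 and 227 CPM in NC, 225, 216 and 223 CPM in HG, and 228, 224 and 219.8 CPM in HG-SIG. The 3 groups overlapped and no difference of Bub1 was called with TMM. Its HG-SIG libraries were, by library size alone, called higher than both other groups (0.18 and 0.20). Bub1b, which encodes the checkpoint protein BUBR1, stood at 229, 242 and 234 CPM in NC, 288, 294 and 300.1 CPM in HG, and 275, 272 and 262 CPM in HG-SIG. No groups overlapped: HG was highest, at 0.32 ± 0.036 (SE, adjusted p = 2.3e-05) over NC, and HG-SIG was lower than HG (-0.12; 0.037 and not called by library size alone). Mad2l1, which encodes the MAD2 protein that holds back CDC20, stood at 137, 138 and 137 CPM in NC, 163, 159 and 154 CPM in HG, and 169, 169 and 157 CPM in HG-SIG. HG and HG-SIG overlapped above NC, by 0.21 for HG and 0.27 ± 0.039 (SE, adjusted p = 8.2e-05) for HG-SIG, and by library size alone HG-SIG was called higher than HG too (0.22). Ttk, the kinase MPS1 that starts checkpoint signalling, stood at 67.2, 67.2 and 67.0 CPM in NC, 72.0, 74.1 and 74.5 CPM in HG, and 83.0, 84.4 and 85.2 CPM in HG-SIG. Its 3 NC libraries were nearly equal, and the groups rose in steps without overlap. HG was 0.13 above NC, HG-SIG was 0.20 ± 0.033 (SE, adjusted p = 3.3e-04) above HG, and HG-SIG was 0.33 ± 0.033 (SE, adjusted p = 3.0e-06) above NC. By library size alone the step from HG to HG-SIG was 0.36, and all 18 alternative fits called it.

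At the centromere and kinetochore, 4 of 7 genes rose in HG and 0 fell, where 14.3% of all tested genes rose and 15.2% fell. Cenpa, the histone H3 variant that marks centromeres, stood at 178, 175 and 169 CPM in NC, 193, 192 and 189 CPM in HG, and 161, 166 and 175 CPM in HG-SIG. HG lay above NC (0.14), and HG-SIG was -0.19 ± 0.039 (SE, adjusted p = 0.00123) against HG, with -0.029 (adjusted p = 0.55) by library size alone. Cenpe, a motor protein that carries chromosomes along microtubules, stood at 146, 149.8 and 144 CPM in NC, 139, 154 and 157 CPM in HG, and 164, 168 and 166 CPM in HG-SIG. The lowest HG library lay below all NC libraries, so HG and NC overlapped and were not called different (0.032, adjusted p = 0.644). HG-SIG was above both, at 0.15 ± 0.045 (SE, adjusted p = 0.0129) over HG. Cenpf, a large kinetochore protein, stood at 138, 144 and 142 CPM in NC, 144, 168 and 177 CPM in HG, and 174, 164 and 167 CPM in HG-SIG. HG replicate 1 was barely above the highest NC library and replicates 2 and 3 were well above it, giving 0.21 in HG against NC (adjusted p = 0.0229). HG-SIG was 0.047 against HG and not called with TMM, and 0.21 and called higher by library size alone (adjusted p = 0.0102). The call in HG against NC was lost when HG replicate 2, HG replicate 3, NC replicate 1 or NC replicate 3 was left out.

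The NDC80 complex, the 4-protein rod by which kinetochores grip microtubules, differed between its 4 genes. Nuf2, which pairs with NDC80 at the microtubule end, stood at 102, 112 and 104 CPM in NC, 143, 137 and 134 CPM in HG, and 127, 132 and 126 CPM in HG-SIG. HG was highest without overlap, and its 0.38 ± 0.042 (SE, adjusted p = 2.1e-05) over NC was the largest difference among the 36 genes in HG against NC. HG-SIG lay lower than HG (-0.11, adjusted p = 0.047; 0.054 and not called by library size alone) and 0.27 ± 0.042 (SE, adjusted p = 1.1e-04) above NC. Ndc80 itself stood at 75.1, 69.9 and 65.4 CPM in NC, 79.0, 76.6 and 72.6 CPM in HG, and 81.2, 79.0 and 75.6 CPM in HG-SIG. Its NC libraries spread widely, and HG overlapped with them (0.12, adjusted p = 0.117), while HG-SIG was above NC (0.16, adjusted p = 0.0166) and, by library size alone, above HG (0.21, adjusted p = 0.00442). Spc24 and Spc25 form the end that binds the rest of the kinetochore. Spc24 stood at 51.3, 51.9 and 48.9 CPM in NC, 55.4, 51.0 and 52.2 CPM in HG, and 48.1, 47.6 and 46.8 CPM in HG-SIG. HG and NC overlapped, and with TMM HG-SIG was below both without overlap, called against HG (-0.15, adjusted p = 0.00843) but not against NC (-0.093). By library size alone HG-SIG was 0.006 against HG and, with the sign turned, 0.097 against NC (adjusted p = 0.0665), neither called. Its partner Spc25, at chr2:69193895-69206194 of GRCm38 on the minus strand, stood at 57.4, 62.4 and 61.3 CPM in NC, 68.3, 71.3 and 63.2 CPM in HG, and 83.5, 87.1 and 79.8 CPM in HG-SIG. The HG-SIG libraries were above all others, and HG was above NC by a small margin (0.17, adjusted p = 0.0312, a call held by 14 of 18 alternative fits). HG-SIG differed by 0.30 ± 0.051 (SE, adjusted p = 3.1e-04) from HG and by 0.47 ± 0.051 (SE, adjusted p = 5.7e-06) from NC, the largest differences among the 36 genes in both comparisons with TMM. All 18 alternative fits called both, with log2 fold changes from HG to HG-SIG of 0.26 to 0.50.

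**Figure D2:**
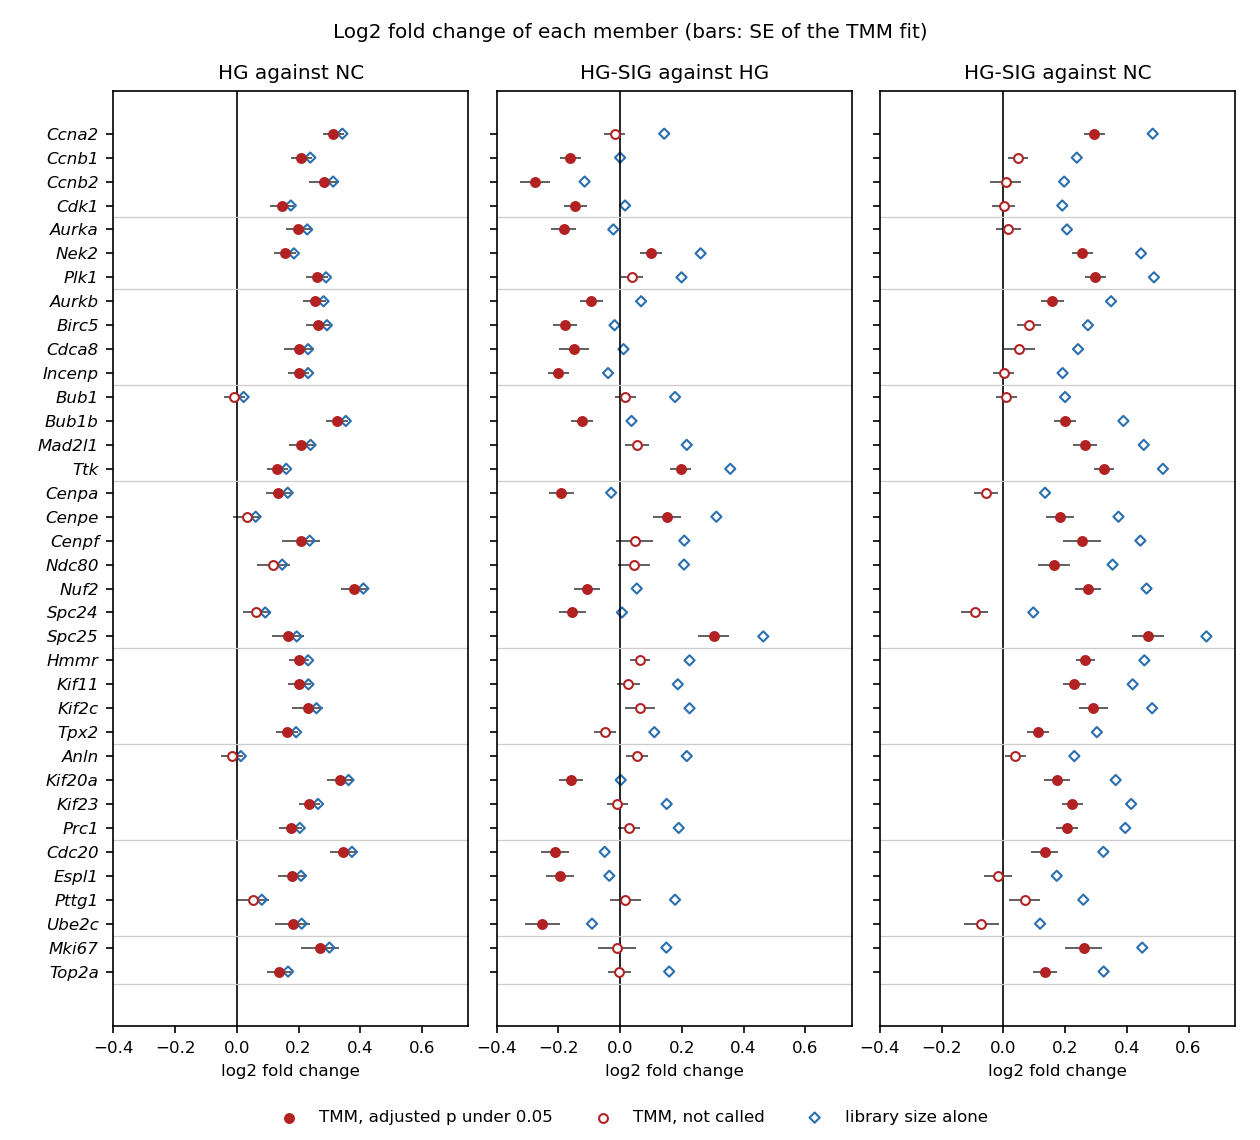
Log2 fold change of each gene (rows, in the order of roles) in the 3 comparisons (panels), from the TMM fit with its SE (circles, filled where the adjusted p was under 0.05) and by library size alone (open diamonds). Circles and diamonds nearly coincide in HG against NC, and the diamonds lie to the right by a near constant amount wherever HG-SIG enters.

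The 4 spindle motors and microtubule binders all rose in HG and 0 of the 4 were called in HG-SIG against HG with TMM, while all 4 were called higher there by library size alone. Of all tested genes, 14.3% rose in HG against NC. In HG-SIG against HG, 52.5% were called in either direction with TMM and 45.8% rose by library size alone. Kif11, the motor that pushes the spindle poles apart, stood at 190.4, 185 and 188 CPM in NC, 211, 222 and 215 CPM in HG, and 222, 226 and 212 CPM in HG-SIG. HG and HG-SIG overlapped above NC, at 0.20 and 0.23. Kif2c, which takes microtubule ends apart at centromeres, stood at 90.8, 100.2 and 87.5 CPM in NC, 112, 110.0 and 104 CPM in HG, and 114, 114 and 112 CPM in HG-SIG. HG was above NC (0.23) and HG-SIG was 0.29 ± 0.048 (SE, adjusted p = 2.1e-04) above NC, while its 0.064 over HG did not pass the test (adjusted p = 0.29). Tpx2, which activates Aurora A on the spindle, stood at 240.0, 242 and 233 CPM in NC, 273, 272 and 257 CPM in HG, and 263, 254 and 256 CPM in HG-SIG. Its rise over NC was 0.16 in HG and 0.11 in HG-SIG. Hmmr, a hyaluronan receptor that also binds spindle microtubules, stood at 126, 128 and 123 CPM in NC, 143, 146 and 144 CPM in HG, and 150.4, 151 and 151 CPM in HG-SIG. The groups did not overlap, and HG-SIG stood 0.27 ± 0.032 (SE, adjusted p = 1.3e-05) above NC, while its 0.064 above HG did not pass the test (adjusted p = 0.109).

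Of the midzone and cytokinesis genes, 3 of 4 rose in HG, where 14.3% of all tested genes rose. Kif20a, a motor of the central spindle, stood at 185, 198 and 189 CPM in NC, 247, 242 and 230.4 CPM in HG, and 218, 219 and 207 CPM in HG-SIG. The groups did not overlap, with 0.33 ± 0.041 (SE, adjusted p = 4.8e-05) in HG against NC and HG-SIG in between (-0.16 against HG; 0.002 by library size alone). Reads of Cdc23, which overlaps with 29.3% of the exon bases of Kif20a on the other strand, may be among these counts. Kif23, the motor that bundles midzone microtubules, stood at 191, 198 and 192 CPM in NC, 226, 225 and 232 CPM in HG, and 231, 225 and 222 CPM in HG-SIG. Both glucose groups lay above NC (0.23 and 0.22) and overlapped with each other, with HG-SIG called higher than HG by library size alone (0.15). Prc1, which crosslinks midzone microtubules and overlaps with Rccd1 over 11.08% of its exon bases, stood at 156, 148 and 149 CPM in NC, 168, 168 and 176 CPM in HG, and 178, 172 and 172 CPM in HG-SIG. It rose by 0.17 in HG and 0.20 in HG-SIG against NC, and HG-SIG was called higher than HG by library size alone (0.19). Anln, which encodes the actin-binding ring protein anillin, stood at 266, 255 and 255 CPM in NC, 256, 253 and 258 CPM in HG, and 271, 259 and 267 CPM in HG-SIG. The HG libraries overlapped with NC, and no difference of Anln was called with TMM (-0.016 in HG against NC; 0.013 by library size alone). Anln was, by library size alone, called higher in HG-SIG than in HG (0.22, adjusted p = 2.3e-04) and than in NC (0.23, adjusted p = 9.9e-05).

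Genes of anaphase onset had the lowest median log2 fold change of the 9 roles in HG-SIG against HG, -0.20 with TMM and -0.042 by library size alone. Cdc20, the activator of the anaphase-promoting complex, stood at 126, 133 and 127 CPM in NC, 165, 170.3 and 154 CPM in HG, and 141, 145 and 136 CPM in HG-SIG. No groups overlapped: HG was 0.34 ± 0.044 (SE, adjusted p = 7.3e-05) above NC, and HG-SIG was -0.21 ± 0.044 (SE, adjusted p = 0.00146) against HG and 0.13 above NC. By library size alone the difference from HG was -0.05 (adjusted p = 0.311). Ube2c, its ubiquitin-conjugating enzyme, stood at 158, 162 and 156 CPM in NC, 193, 184 and 161 CPM in HG, and 152, 155 and 146 CPM in HG-SIG. HG replicate 3 was close to the NC libraries and lay below NC replicate 2, so the 0.18 in HG against NC (adjusted p = 0.03) was the only one of the 30 rises with overlapping libraries, and it was lost in 6 of 18 alternative fits. With TMM all HG-SIG libraries were below all others, at -0.25 ± 0.057 (SE, adjusted p = 0.00247) against HG and -0.091 (adjusted p = 0.17) by library size alone. Against NC, HG-SIG was -0.071 with TMM and 0.119 by library size alone, neither called. Tnnc2 overlaps with 22.77% of the exon bases of Ube2c. Espl1, which encodes separase, the protease that cuts cohesin, stood at 94.3, 92.4 and 96.1 CPM in NC, 102, 105 and 114 CPM in HG, and 92.6, 91.4 and 95.6 CPM in HG-SIG. HG was above both other groups, which overlapped, with 0.18 in HG against NC and -0.20 ± 0.045 (SE, adjusted p = 0.00283) in HG-SIG against HG (-0.035 by library size alone). Pttg1, which encodes securin, the inhibitor of separase, stood at 59.8, 59.9 and 56.8 CPM in NC, 64.3, 62.4 and 55.9 CPM in HG, and 61.2, 63.3 and 60.6 CPM in HG-SIG. The HG libraries spread over the whole range of NC and no difference was called with TMM. Pttg1 was, by library size alone, called higher in HG-SIG than in HG (0.18, adjusted p = 0.00731) and than in NC (0.26, adjusted p = 4.3e-04).

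Of the chromosome structure genes, Top2a, the topoisomerase that untangles sister chromatids, stood at 687, 673 and 672 CPM in NC, 709, 751 and 774 CPM in HG, and 748, 747 and 736 CPM in HG-SIG. HG and HG-SIG overlapped above NC (0.14 and 0.14), with 0.16 between them by library size alone, where HG-SIG was called higher than HG. Mki67, the proliferation marker Ki-67 that coats mitotic chromosomes, stood at 753, 753 and 777 CPM in NC, 816, 919 and 1018 CPM in HG, and 912, 909 and 912 CPM in HG-SIG. The HG libraries spread more widely than those of either other group, with 0.27 ± 0.061 (SE, adjusted p = 0.00479) in HG against NC, and the HG-SIG libraries lay within the HG range (-0.011 against HG, and 0.074 without HG replicate 3). HG-SIG was 0.15 above HG by library size alone (adjusted p = 0.0497). Levels between genes can be set side by side only per length: in NC, Ccnb2 stood at 275 ± 13.4 TPM (a count scaled by gene length and library; SD, n = 3), Mki67 at 242 ± 4.25 and Top2a at 240.1 ± 3.54, of which the last pair differed by less than their SD. Cenpf (29.2 ± 0.548 TPM), Espl1 (34.4 ± 0.716) and Ndc80 (34.5 ± 2.46) were lowest, the last pair again within their spread. The length used was that of all annotated exons of a gene together, 1531 bases for Ccnb2 and 15433 for Cenpf. Lengths of the transcripts expressed in these cells were not known, so the ranking depends on the annotation.

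Summed over the 36 genes, the TMM-scaled level was 6394 ± 57.1 CPM in NC, 7341 ± 104 CPM in HG and 7111 ± 77.7 CPM in HG-SIG (SD, n = 3). By library size alone it was 6076 ± 59.3, 7119 ± 111 and 7709 ± 58.6 CPM. NC was lowest in both, and HG and HG-SIG changed places with the scaling. The groups did not overlap in either.

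**Figure D3:**
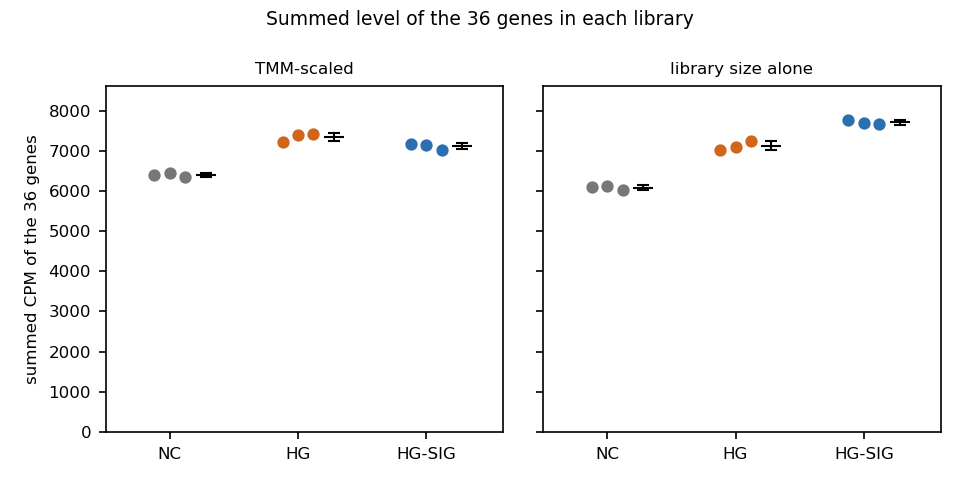
Summed CPM of the 36 genes in each library (dots; bars are the mean ± SD of 3 libraries), TMM-scaled on the left and by library size alone on the right. NC is lowest in both panels, and HG-SIG lies below HG on the left and above it on the right.

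By their calls with TMM in the 3 comparisons, the 36 genes fell into 8 patterns. The share of all tested genes with each pattern was not counted. Of all tested genes, 14.3% rose and 15.2% fell in HG against NC with TMM. The shares were 25.7% and 26.8% in HG-SIG against HG, and 29.9% and 28.7% in HG-SIG against NC. By library size alone, 45.8% rose in HG-SIG against HG and 51.0% in HG-SIG against NC. In 12 genes, among them Ccna2, Plk1, Kif11, Mad2l1 and Mki67, HG and HG-SIG were both higher than NC and not called different from each other. All 12 were called higher in HG-SIG than in HG by library size alone. In 10 genes, Aurka, Birc5, Ccnb1, Ccnb2, Cdca8, Cdk1, Cenpa, Espl1, Incenp and Ube2c, HG was higher than both and HG-SIG was not called different from NC. Of these 10, all but Ube2c were called higher in HG-SIG than in NC by library size alone. A further 5 genes, Aurkb, Bub1b, Cdc20, Kif20a and Nuf2, were lower in HG-SIG than in HG and still above NC. Nek2, Spc25 and Ttk rose at each step. The other 6 were Anln, Bub1 and Pttg1 with no call, Cenpe, higher in HG-SIG than in both, Ndc80, higher in HG-SIG than in NC, and Spc24, lower in HG-SIG than in HG. By library size alone 0 of the 16 genes lower in HG-SIG than in HG were called higher, 1 (Ccnb2) was called lower, and 7 had a log2 fold change above 0 that did not pass. With limma on log2(TPM + 1), Aurkb (0.11) and Nuf2 (0.097, adjusted p = 0.0423) were called higher and 0 of the 16 lower, with Ccnb2 at -0.069. The 16 genes not called in HG-SIG against HG with TMM were all called higher there by both. Library size alone called 45.8% of all tested genes higher there.

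**Figure D4:**
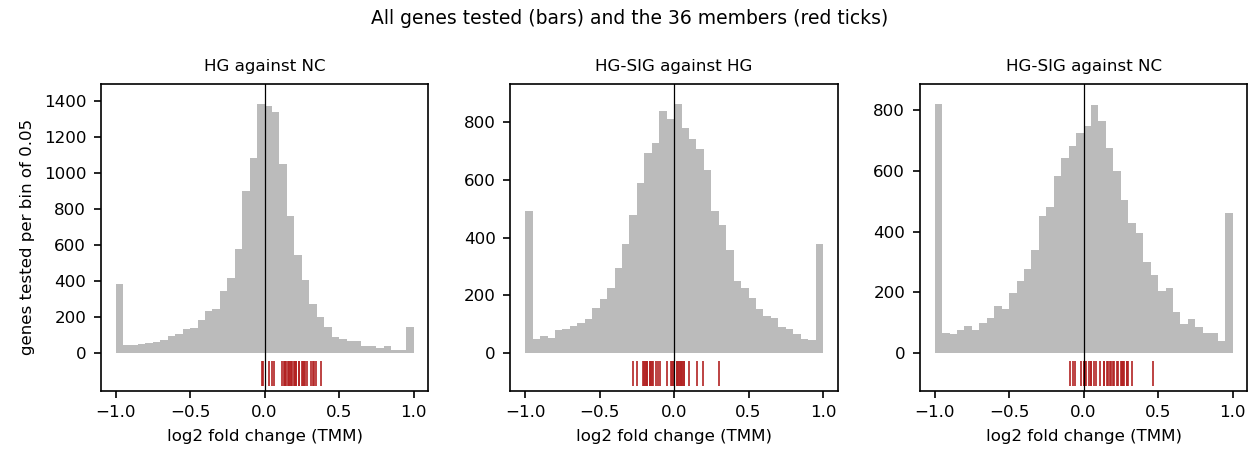
Log2 fold changes of all 13311 tested genes (grey bars, 0.05 wide; the end bars hold all values beyond 1 either way) and of the 36 genes (red ticks below) in the 3 comparisons, TMM-scaled. The ticks lie mostly to the right of 0 in the comparisons with NC and on both sides of 0 in HG-SIG against HG, and none reaches 1 or -1.

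The criterion in the series' design text, an absolute log2 fold change over 1, was met with an adjusted p under 0.05 by 0 of the 36 genes in each comparison, beside 2.85% of all tested genes in HG against NC, 5.3% in HG-SIG against HG and 8.51% in HG-SIG against NC.

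Ratios of counts within a library do not depend on its scaling factor. The pairs of genes given here were picked after their values were seen and are descriptions. Spc25 counts per Spc24 count, partners at 1 end of the NDC80 complex, were 1.19 ± 0.067 for NC, 1.28 ± 0.101 for HG and 1.76 ± 0.0642 for HG-SIG (SD, n = 3). Ttk per Bub1b was 0.286 ± 0.00805 for NC, 0.25 ± 0.00162 for HG and 0.312 ± 0.0115 for HG-SIG. Plk1 per Aurka was 0.939 ± 0.00886, 0.98 ± 0.0159 and 1.14 ± 0.00913 in the same order. In each of these ratios the 3 HG-SIG libraries were above all 6 others. The summed counts of the 36 genes per summed count of 38 DNA replication genes were 1.28 ± 0.00827 for NC, 1.31 ± 0.0294 for HG and 1.55 ± 0.0139 for HG-SIG, again with HG-SIG apart.

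**Figure D5:**
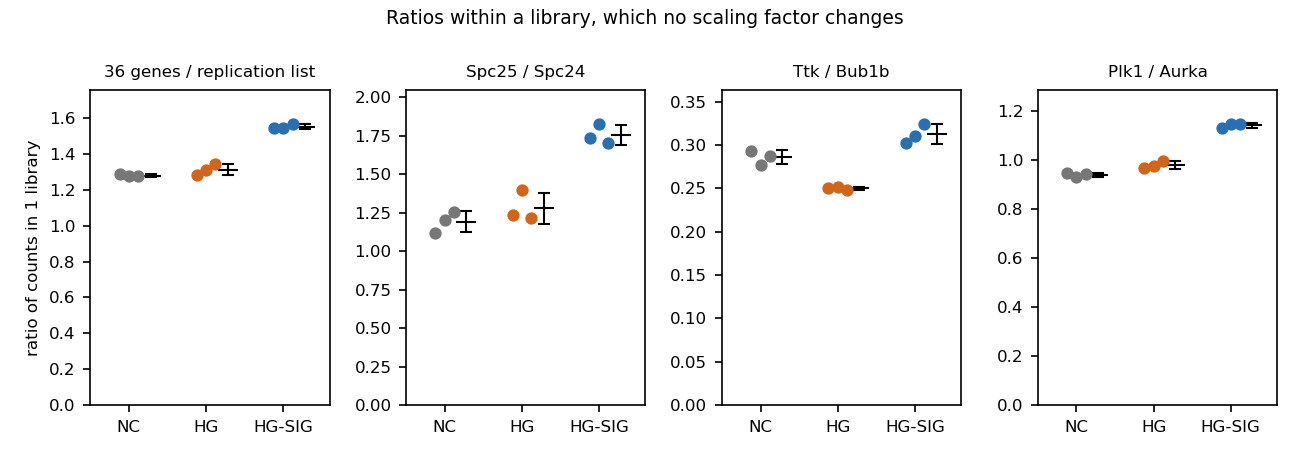
Ratio of counts within each library (dots; bars are the mean ± SD of 3 libraries) for the 36 genes against the DNA replication list and for 3 pairs of genes picked with their values known. In all 4 panels the HG-SIG libraries are above the NC and HG libraries.

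Counts in other lists stand beside the shares of all tested genes. With TMM 14.3% of these rose and 15.2% fell in HG against NC, 25.7% and 26.8% in HG-SIG against HG, and 29.9% and 28.7% in HG-SIG against NC. By library size alone 45.8% rose and 13.7% fell in HG-SIG against HG, and 51.0% and 15.9% in HG-SIG against NC. The DNA replication list, genes of S phase, shared the rise in HG: 26 of 38 rose and 0 fell, with Prim1, a primase subunit (0.39), and Mcm7, a subunit of the replicative helicase (0.32), first by p. Of these 38, 2 rose and 27 fell in HG-SIG against HG, and by library size alone 8 rose and 20 fell, with medians of -0.28 and -0.12. The licensing factor Cdt1 (-0.77) and the GINS subunit Gins1 (-0.91) were first by p there, and both fell by library size alone too (-0.61 and -0.75). Against NC, 4 replication genes rose in HG-SIG and 19 fell with TMM, and 18 rose and 5 fell by library size alone. In the list of early G1 and quiescence genes, Cdk6 and Ccnd1, the kinase and cyclin of early G1, were first by p in HG against NC (-0.78 and -0.59), where 2 of 13 tested genes rose and 4 fell. Both were lower again in HG-SIG against HG (-0.51 and -0.90, or -0.34 and -0.73 by library size alone), and Btg2, an antiproliferative gene, was higher (1.05). There 4 of the 13 rose and 4 fell (8 and 4 by library size alone), and in HG-SIG against NC 4 rose and 5 fell (7 and 4 by library size alone).

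Further mitotic genes were counted from lists in the same way. Beside them, 14.3% of all tested genes rose and 15.2% fell in HG against NC, 25.7% and 26.8% in HG-SIG against HG, and 29.9% and 28.7% in HG-SIG against NC. The shares by library size alone were 45.8% and 13.7% in HG-SIG against HG, and 51.0% and 15.9% in HG-SIG against NC. Of 39 other kinetochore, centromere and checkpoint genes, 18 rose and 2 fell in HG against NC, with Dsn1, a subunit of the MIS12 complex (0.24), and Pmf1, another of its subunits (0.28), first by p and Zwint (-0.20) among those that fell. From HG to HG-SIG 8 of these rose and 10 fell (21 and 4 by library size alone), with Pmf1 at -0.55 and the checkpoint gene Bub3 at -0.30. Against NC, 18 rose and 6 fell in HG-SIG (29 and 0 by library size alone), led by Ska3 (0.42) and Cenpu (0.54). Of 32 other spindle motors and microtubule genes, 17 rose and 1 fell in HG against NC, led by Ckap2 (0.28) and the kinesin Kif2a (0.24). From HG to HG-SIG 6 of these rose and 7 fell (18 and 0 by library size alone), led by Kif3b (0.48) and Tubg1, which encodes the gamma-tubulin of spindle poles (0.24). Against NC, 18 rose and 5 fell in HG-SIG (26 and 0 by library size alone), led by Ckap2l (0.38) and Fam83d (0.52).

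For the next 4 lists too, the shares of all tested genes that rose and fell were 14.3% and 15.2% in HG against NC. They were 25.7% and 26.8% in HG-SIG against HG (45.8% and 13.7% by library size alone). In HG-SIG against NC they were 29.9% and 28.7% (51.0% and 15.9%). Of 19 genes of G2 entry and mitotic kinase control, 9 rose and 3 fell in HG against NC, led by the CDK subunits Cks2 (0.41) and Cks1b (0.28). HG-SIG against HG gave 4 rises and 7 falls (10 and 5 by library size alone), and the CDK-activating phosphatases Cdc25b (-0.38; -0.22 by library size alone) and Cdc25a (-0.31; -0.15) were first by p. HG-SIG against NC gave 6 rises and 5 falls (12 and 2 by library size alone), with Nek7 at 0.43 and Nek6 at -0.41. Of 21 condensin and cohesin genes, 7 rose and 0 fell in HG against NC, led by the condensin subunit Ncapd2 (0.37) and the cohesin acetyltransferase Esco2 (0.24). For HG-SIG against HG 7 rose and 3 fell (18 and 0 by library size alone), led by Esco1 (0.37) and the cohesin loader Nipbl (0.44), and in HG-SIG against NC 13 rose and 1 fell (20 and 0 by library size alone). Of 17 genes of the anaphase-promoting complex and its regulators, 3 rose and 0 fell in HG against NC, led by Anapc16 (0.25) and the inhibitor Fbxo5 (0.18). Between HG and HG-SIG 4 rose and 6 fell (9 and 1 by library size alone), with Anapc15 at -0.61 and Cdc27 at 0.24, and in HG-SIG against NC 7 rose and 6 fell (11 and 1 by library size alone). Of 14 tested cytokinesis genes, 3 rose and 3 fell in HG against NC, with Septin9 at -0.71 and Racgap1, a partner of Kif23, at 0.32. From HG to HG-SIG 1 of these rose and 5 fell (7 and 3 by library size alone), with Septin9 at -0.49 and Rhoa, the GTPase that drives the contractile ring, at -0.30, and in HG-SIG against NC 5 rose and 5 fell (8 and 4 by library size alone).

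Of 23 regulators known for cell cycle promoters, 11 rose and 2 fell in HG against NC, 7 rose and 11 fell in HG-SIG against HG (10 and 4 by library size alone), and 8 rose and 4 fell in HG-SIG against NC (18 and 4 by library size alone). Shares of all tested genes were, in the same order, 14.3% and 15.2%, 25.7% and 26.8% (45.8% and 13.7% by library size alone), and 29.9% and 28.7% (51.0% and 15.9%). Foxm1, the activator of G2 and M phase genes, stood at 136, 147 and 146 CPM in NC, 158, 163 and 169 CPM in HG, and 139, 137 and 145 CPM in HG-SIG. It rose in HG (0.19, adjusted p = 0.00418) and fell in HG-SIG against HG with TMM (-0.21), but not by library size alone (-0.053, adjusted p = 0.299). Mybl2, whose protein acts with MuvB as an activator, stood at 131, 138 and 133 CPM in NC, 145, 148 and 153 CPM in HG, and 106, 96.6 and 104 CPM in HG-SIG. It rose slightly in HG (0.15) and was lower in HG-SIG than in both other groups without overlap, at -0.54 ± 0.042 (SE, adjusted p = 4.0e-07) against HG and -0.38 by library size alone. E2f1, an activator of S phase genes, stood at 43.9, 44.6 and 39.9 CPM in NC, 48.1, 48.7 and 47.9 CPM in HG, and 38.7, 41.2 and 42.7 CPM in HG-SIG. It rose in HG (0.17) and fell in HG-SIG against HG only with TMM (-0.24; -0.078 by library size alone). E2f8, a repressor of the E2F family, stood at 66.5, 70.8 and 67.8 CPM in NC, 83.3, 83.7 and 86.7 CPM in HG, and 65.9, 65.5 and 65.7 CPM in HG-SIG. HG was apart from the other groups (0.31 over NC; HG-SIG against HG -0.36, or -0.20 by library size alone). E2f7, the related repressor, stood at 19.0, 20.8 and 19.6 CPM in NC, 21.6, 19.6 and 19.9 CPM in HG, and 23.0, 21.9 and 23.9 CPM in HG-SIG. HG overlapped with NC, and HG-SIG was higher than HG (0.17; 0.33 by library size alone). Tfdp1, the DNA-binding partner of E2F proteins, stood at 301, 308 and 299 CPM in NC, 366, 367 and 364 CPM in HG, and 303, 301 and 303 CPM in HG-SIG. Its HG libraries were apart from all others (0.27 over NC), which overlapped, and HG-SIG was -0.28 against HG (-0.11 by library size alone). Rbl1, the pocket protein of the repressing form of MuvB, stood at 136, 133 and 140.0 CPM in NC, 136, 144 and 145 CPM in HG, and 162, 163 and 169 CPM in HG-SIG. It was called higher in HG-SIG only, at 0.21 over HG. Its relative Rbl2 rose in HG-SIG against HG as well (0.44; 0.61 by library size alone), and so did Rb1 (0.65; 0.81). Cdkn1a, which encodes the CDK inhibitor p21, stood at 172, 171 and 173 CPM in NC, 115, 101 and 113 CPM in HG, and 96.3, 85.4 and 87.9 CPM in HG-SIG. It fell at both steps with TMM, at -0.65 ± 0.052 (SE, adjusted p = 1.2e-06) in HG against NC and -0.29 in HG-SIG against HG, the latter -0.13 and not called by library size alone (adjusted p = 0.0658). Foxm1, E2f1, E2f8 and Tfdp1 were not called in HG-SIG against NC with TMM (-0.024, -0.065, -0.056 and -0.003), and all 4 were called higher there by library size alone (0.17, 0.12, 0.13 and 0.19).

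Single libraries moved some genes more than the median. The median deviation of the 36 genes from their group mean lay between -0.022 and 0.025 (log2) in every library. Within HG, replicate 3 had Mki67 at 0.16 and Ube2c at -0.16 from the group mean, and replicate 1 had Cenpf at -0.17 and Ube2c at 0.11. Long transcripts were the high ones in HG replicate 3 and the low ones in replicate 1: across the 36 genes, which share each library, the Spearman correlation of exon length with the deviation was 0.66 and -0.57, beside 0.35 and -0.29 over 12099 genes. The part of transcript length in the differences of Mki67, Cenpf and Ube2c was not tested.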

How the data were processed

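Messenger RNA of the 9 libraries was selected with oligo(dT) and sequenced; per the labels, all share 1 batch. The deposited values were whole-number read counts per gene and library. Bowtie2 2.3.5, RSEM and build mm10 were used, per the submitters' processing notes. Rounding of RSEM estimates before deposit is possible. No source used here names the strand setting, the length of reads or the release of the annotation. Groups and replicate numbers came from the sample titles. The 1996 features without an Ensembl identifier took 5.85% to 6.21% of counts and stayed in the tests.

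Counts were fitted with edgeR 4.0.16 (R 4.3.3) in 1 quasi-likelihood model over the 9 libraries, with TMM factors and the filterByExpr filter, which kept 13311 genes. P-values were adjusted by Benjamini-Hochberg over all of these, and genes with an adjusted p under 0.05 were called. Tests were two-sided, and the fit was tested on simulated data, with changed genes drawn from low to high counts. It recovered 32.8% of simulated log2 changes of 0.25, 74.6% of those of 0.5 and 97% of those of 1. Small changes could therefore be missed. Between replicate pairs the chi-square per gene was 2.82 to 9.14, above what counting error alone gives. TPM used union exon lengths of GENCODE M21 (GRCm38, the assembly of mm10).

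The members and lists were chosen with earlier results of these data known, so counts over them are descriptions. Values by library are given for every member, full statistics for the 8 largest called differences per comparison and for calls against the majority, the first genes by p of each other list, and a fixed set of regulators, of which Lin54 was not analysed here. A cytokinesis gene carried by 2 identifiers was left out of its list. Alternatives were DESeq2 1.42.0, RLE factors, library size alone, 2 other filters, the 2 compared groups only, a replicate block, limma 3.58.1 on log2(TPM + 1), identified features only, each library left out, and a fold criterion. Same-numbered HG and HG-SIG libraries deviated together (correlations 0.243, 0.289 and 0.467), so their numbers were taken as pairs. Libraries with different numbers gave -0.31 to 0.122. The numbers with NC were not taken as pairs, since NC replicate 1 had correlations of 0.093 with HG replicate 1 and 0.097 with HG-SIG replicate 1. For NC replicates 2 and 3 they were 0.233 and 0.293 with HG and 0.133 and 0.211 with HG-SIG, so pairing with NC remains possible. The main fit was not paired, and p-values in the text come from it unless another fit is named.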

Additional observations from a re-analysis of the deposited data

How the results depend on the processing

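HG against NC depended least on the scaling, with 30 higher members by TMM and by library size alone and 31 with limma on log2(TPM + 1). When 1 library was left out, its counts of higher members and of list genes ran over wider ranges than those with HG-SIG. In HG against NC this gave 24 to 30 higher and 0 to 0 lower members, medians of 0.189 to 0.206 and 88 to 114 called list genes. The 24 came without NC replicate 3. The median was 0.231 by library size alone and 0.23 with limma on log2(TPM + 1), where all genes shifted too. For HG-SIG the scaling decided the counts. In HG-SIG against HG, library size alone gave 20 higher, 1 lower and a median of 0.146, and limma on TPM, which applies no TMM factors, gave 22, 0 and 0.189. In HG-SIG against NC they gave 34 and 36 higher, with medians of 0.352 and 0.393, and the fit of the 2 groups alone gave 1 lower (Spc24). Leaving out 1 library gave 2 to 4 higher, 12 to 16 lower, medians of -0.037 to -0.004 and 109 to 125 list genes in HG-SIG against HG, where without HG replicate 1 Cenpe and Nek2 were no longer called. In HG-SIG against NC it gave 19 to 23 higher, 0 to 0 lower, medians of 0.147 to 0.171 and 125 to 145 list genes. When a log2 fold change beyond 1 either way was also required, 0 members were called in any comparison, and 0, 1 and 5 list genes in the 3 comparisons. The replicate block gave 31 higher and 0 lower members in HG against NC, and 23 and 0 in HG-SIG against NC. In HG-SIG against HG, where the numbers were taken as pairs, it gave 4 and 16. The block covered all 9 libraries, NC included, and a fit that pairs only HG with HG-SIG was not run. Across the comparisons the block added Ndc80 and Birc5 and changed no other call of a member. Sums and ratios were not refitted, and 3 libraries a group limit all tests.

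Aurkb and Nuf2, called lower in HG-SIG against HG with TMM, were called higher there with limma on TPM, the 2 members whose call turned. Signs that turned were of small differences or came with the scaling. In HG against NC, Anln was 0.013 and Bub1 0.022 by library size alone, 0.016 and 0.024 with limma on TPM. In HG-SIG against HG by library size alone, Aurkb was 0.068, Bub1b 0.037, Ccna2 0.143, Cdca8 0.011, Cdk1 0.016, Kif20a 0.002, Kif23 0.151, Mki67 0.15, Nuf2 0.054, Spc24 0.006, Top2a 0.159 and Tpx2 0.111. With limma on TPM they were Aurka 0.022, Aurkb 0.111, Birc5 0.027, Bub1b 0.08, Ccna2 0.186, Ccnb1 0.044, Cdca8 0.054, Cdk1 0.06, Cenpa 0.014, Espl1 0.009, Incenp 0.005, Kif20a 0.046, Kif23 0.193, Mki67 0.199, Nuf2 0.097, Spc24 0.051, Top2a 0.203 and Tpx2 0.155, and Top2a was 0.002 when 1 CPM in 3 libraries was required. In HG-SIG against NC, Cenpa, Espl1, Spc24 and Ube2c were 0.135, 0.173, 0.097 and 0.119 by library size alone and 0.179, 0.214, 0.141 and 0.164 with limma on TPM. There Bub1 was -0.003, Ccnb2 -0.005, Cdk1 -0.011 and Incenp -0.011 with DESeq2 and with RLE factors. Cdk1 and Incenp were both -0.003 with identified features only and -0.006 with the 2 groups only. When 1 library was left out, log2 fold changes ran from -0.027 to 0.006 for Anln, -0.019 to 0.009 for Bub1 and -0.008 to 0.086 for Cenpe in HG against NC. In HG-SIG against HG they ran from -0.036 to 0.115 for Cenpf, -0.037 to 0.031 for Top2a, -0.024 to 0.008 for Kif23, -0.089 to 0.074 for Mki67, -0.036 to 0.059 for Pttg1 and -0.037 to 0.006 for Ccna2. In HG-SIG against NC they ran from -0.029 to 0.045 for Ccnb2, -0.002 to 0.024 for Bub1, -0.002 to 0.09 for Cdca8, -0.014 to 0.029 for Cdk1, -0.004 to 0.006 for Incenp and -0.014 to 0.035 for Aurka.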

Other observations

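Genes outside the 36 with a promoter form that 13 of the 30 windows had, a CHR within 50 bases of the start and more than 1 CCAAT box, were counted as a description. The form was chosen after the motif counts of the 36 were known. Of tested genes that were not among the 36, 98 had it. In HG against NC, 28 of the 98 (28.6%) rose and 9 (9.18%) fell, where 15.6% of the 9434 tested genes with a promoter window rose and 16.2% fell. In HG-SIG against HG, 16 (16.3%) rose and 27 (27.6%) fell with TMM, where 27.8% of the 9434 rose and 28% fell, so the share of falls was close to that of all genes. By library size alone 44 rose and 11 fell, beside 49.8% and 14.2% of all. In HG-SIG against NC, 30 (30.6%) rose and 20 (20.4%) fell with TMM, where 32.4% of the 9434 rose and 30.0% fell, so the share of rises was no higher than that of all genes. By library size alone 65 rose and 8 fell, beside 55.1% and 16.3% of all. The median log2 fold changes of these 98 genes were 0.071, -0.041 and 0.033 with TMM in the 3 comparisons in that order.

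Exon length was also set beside the fold changes of the 36 genes, which share their libraries. The Spearman correlation was -0.23 in HG against NC, 0.41 in HG-SIG against HG and 0.20 in HG-SIG against NC over the 36 genes, and 0.016, 0.14 and 0.13 over 12099 genes with a length.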
